A study of Nasonia vitripennis with 39 samples.

Results

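Def1-2 and LOC100121630, whose listed synonym is Def2-3, are defensin genes of the parasitoid wasp Nasonia vitripennis, and ppo1 is a prophenoloxidase gene. These 3 of 14621 genes in the deposited count table were followed as effectors of innate immunity across sex, tissue and ploidy. They were chosen by measured values of the same libraries, namely their differences by ploidy in male heads, in female heads and in female abdomens. Their values in those 3 comparisons are therefore given below as a description without a test.

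Defensins are small secreted peptides held together by cysteine bridges that damage the membranes of bacteria. In insects they are made mainly by the fat body, blood cells and epithelia, and the Toll and Imd pathways raise their transcription when bacteria or fungi are sensed. Prophenoloxidase is the inactive form of a copper enzyme that, once cut by a serine protease cascade, oxidises phenols on the way to melanin at wounds and around intruders; insect blood cells are its best-known source.

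RNA was sequenced from heads and abdomens of wasps taken 1 day after emergence, after poly-T selection. All groups, those of usual ploidy included, came from the Whiting Polyploid Line (WPL), in which females carry 3 or 2 chromosome sets (3N, 2N) and males carry 2 or 1 (2N, 1N); 2N females and 1N males have the ploidy usual for this haplodiploid insect. The groups were 3N female abdomens, 2N female abdomens, 2N male abdomens, 1N male abdomens, 3N female heads, 2N female heads, 2N male heads and 1N male heads, with 5 libraries each except 4 of 2N female abdomens. The labels name no infection or wounding, do not say whether a library is 1 wasp or a pool, and tie no abdomen to a head. The p-values therefore measure the spread between these libraries, which all come from 1 line.

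Library totals ran from 16.3 M to 132 M estimated counts, with 19 deep libraries above 30 M and 20 shallow ones. Deep libraries were 3 of the 3N female heads, 0 of the 2N female heads, 4 of the 2N male heads and 1 of the 1N male heads. In abdomens they were 1 of the 3N females, 1 of the 2N females, all 5 of the 2N males and 4 of the 1N males. The summed level of the neuron and eye marker list was 2950 to 8400 CPM in the head libraries, where CPM is the count scaled to the TMM library size. It was 17.6 to 24.7 CPM in 2N female abdomens. The ovary and germline markers oskar and nanos together had 425 to 1080 CPM in 3N female abdomens and 1090 to 1260 CPM in 2N female abdomens, and 8.26 to 96.8 CPM in 2N female heads, highest in B21. No gene symbol matched the list of blood cell markers, so the amount of blood cells in a library was not measured. In whole tissue, fewer cells of a type and less RNA per cell cannot be told apart.

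The defensins were the abundant members per unit of transcript length. On the TPM scale, which corrects for gene length, the median level of Def1-2 was between 108 and 301 TPM in 7 of the 8 groups. The 2N female abdomens, with a median of 1.38 TPM, were the group outside that range. For Def1-2 no neighbouring groups in the order of medians were separate except 2N female abdomens and the group above them, 2N male heads. LOC100121630 had a median of 553 TPM in 2N female heads, 274 TPM in 1N male heads, 216 TPM in 3N female heads and 88 TPM in 2N male heads. Its abdominal medians were 10.8 TPM in 1N males, 8.7 TPM in 3N females, 4.28 TPM in 2N males and 0.155 TPM in 2N females. The LOC100121630 libraries of 2N male heads lay below all those of the other head groups and above all abdomens. ppo1 was the scarcest, with its highest median, 5.02 TPM, in 1N male abdomens and its lowest, 0.05 TPM, in 2N female abdomens. Every neighbouring pair in the order of ppo1 overlapped.

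**Figure D1:**
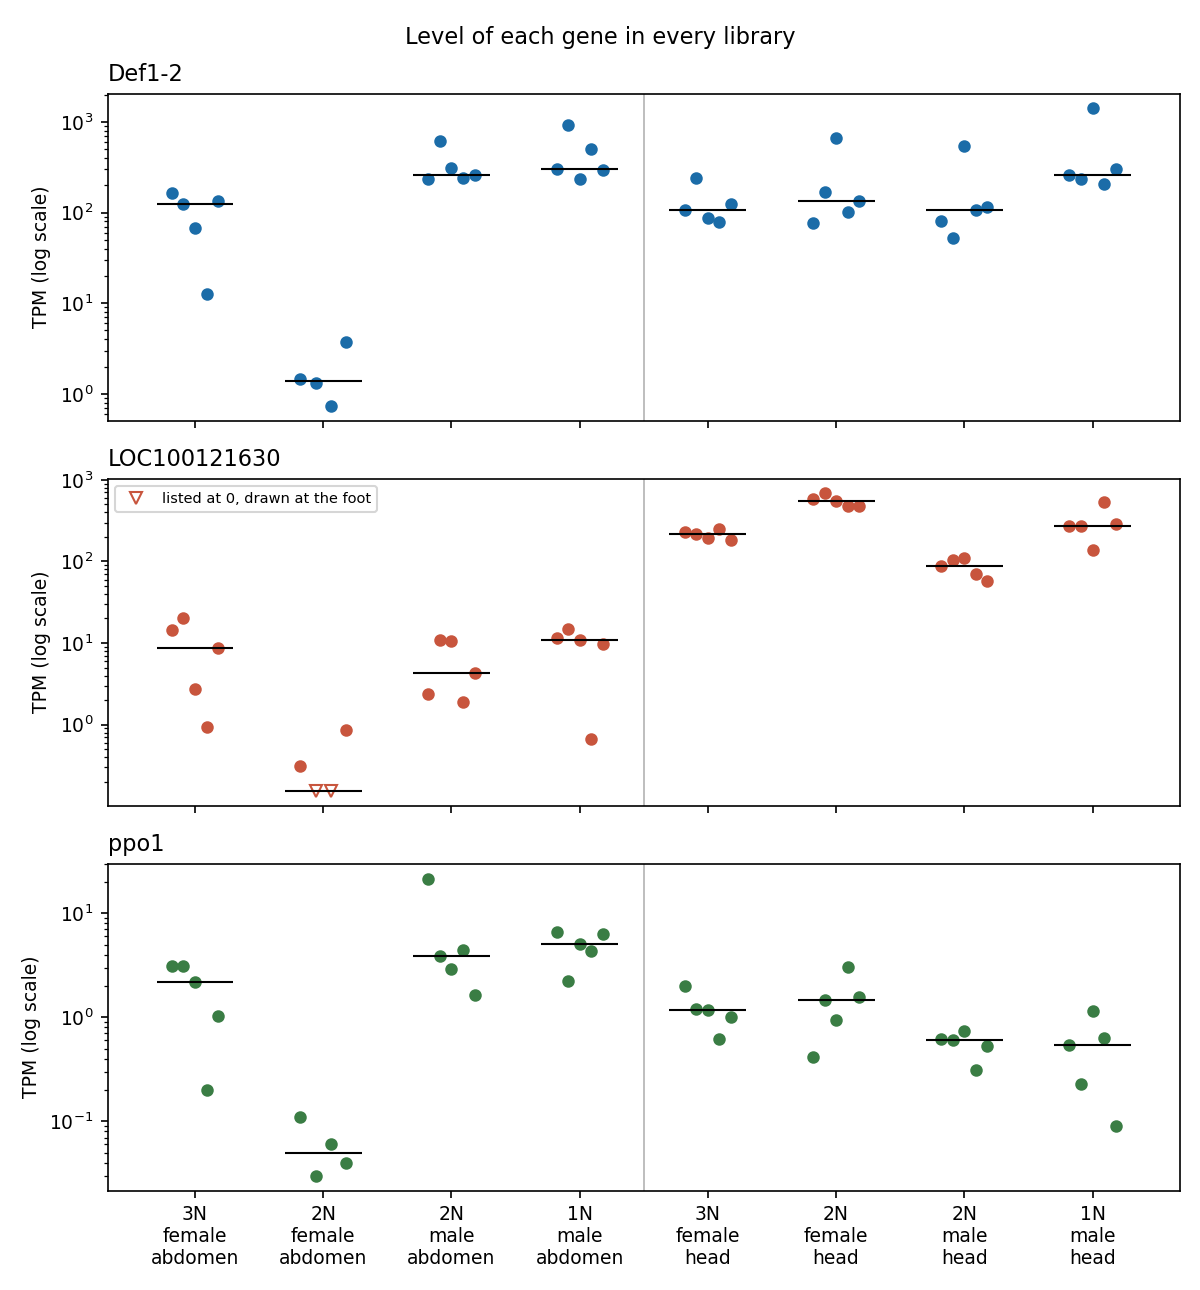
Level of Def1-2, LOC100121630 and ppo1 in TPM on a log axis, 1 point per library, with a line at the median of each of the 8 groups. Open triangles are libraries listed at 0. All 3 genes have their lowest median in 2N female abdomens, and LOC100121630 is higher in all 20 head libraries than in any abdomen.

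Def1-2 varied widely among libraries of the same group. In 3N female heads it had 16.3, 36.3, 12.6, 10.8 and 16.6 CPM in libraries B31, B32, B33, B34A and B35A. In 2N female heads it had 10.1, 25.4, 99.5, 16.2 and 19.6 CPM in B21, B22, B23, B24 and B25. The groups overlapped, and B23 alone stood far above the rest. The fitted log2 difference, 3N minus 2N, was -0.87, and without B23 it was 0.11, so its direction rested on that library.

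In 2N male heads Def1-2 had 12.3, 10.2, 76.3, 16.3 and 17.4 CPM in B11, B12A, B13, B14 and B15. In 1N male heads it had 48.9, 34.5, 244, 31.7 and 48.4 CPM in B1A, B2A, B3, B4A and B5D. Leaving B13 aside, every 2N value was below every 1N value, and B3 was the highest of all 39 libraries. The log2 difference, 2N minus 1N, was -1.62, against -0.61 without B3 and -2.52 without B13.

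In 3N female abdomens Def1-2 had 30.6, 24.1, 15.7, 2.13 and 29.7 CPM in B36A, B37A, B38, B39A and B40A. In 2N female abdomens it had 0.316, 0.279, 0.156 and 0.682 CPM in B26A, B27, B28A and B30. The groups did not overlap, although B39A was far below the other 3N libraries, and the log2 difference was 6.07. In this comparison 38.7% of the 11884 genes tested were called, against 0.0738% in male heads and 0.313% in female heads.

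In male abdomens, where the choice of genes used no result, 0 of the 3 genes passed the threshold of an adjusted p of 0.05 by ploidy, with 0.0421% of all genes called; 0 of the 3 also passed at an unadjusted p under 0.05, by DESeq2 and by limma voom. Def1-2 had 56.3, 176, 79.5, 57.3 and 63.7 CPM in 2N male abdomens B16, B17, B18, B19 and B20. In 1N male abdomens it had 226, 58, 132, 78 and 80.2 CPM in B6A, B7, B8, B9 and B10. The groups overlapped throughout, with a log2 difference of -0.44 and an adjusted p of 1 by edgeR's quasi-likelihood test.

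Def1-2 was lower in 2N female abdomens than in those of either kind of male. The 2N female abdomens, at 0.358 ± 0.226 CPM (SD, n = 4), stood against 86.6 ± 51 CPM in 2N male abdomens (SD, n = 5), a log2 difference of -8.04 ± 0.85 (SE, adjusted p = 8.89e-08). Against 1N male abdomens, at 115 ± 67.8 CPM (SD, n = 5), the difference was -8.48 (adjusted p = 5.61e-08). Neither pair of groups overlapped. Of all genes tested, 46.3% were lower in 2N female than in 2N male abdomens, and 47.0% were lower than in 1N male abdomens. The sex and tissue comparisons, and that of sex by tissue, share their libraries with those behind the choice of the genes. Their p-values are therefore not independent of that choice. This holds above all for 2N female abdomens, 1 side of a ploidy comparison used for the choice.

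In heads the sexes did not differ past the threshold for Def1-2. The log2 difference of 2N female heads from 2N male heads was 0.33 ± 0.69 (SE, adjusted p = 0.76), and it was -0.63 without B23 and 1.23 without B13. Against 1N male heads it was -1.28 (adjusted p = 0.201), and without B23 it was -2.24 (adjusted p = 0.0326) and without B3 -0.28. Between tissues, Def1-2 fell in 2N female abdomens relative to 2N female heads by 6.61 on the log2 scale (adjusted p = 1.86e-07), with no overlap and with 42.6% of genes lower. In 2N males it was higher in abdomens than in heads by a log2 difference of 1.71 (adjusted p = 0.0232), with overlapping libraries and 32.5% of genes higher. That call was lost without any 1 of B11, B12A, B14, B15 or B17, the lowest of these values being 1.27 without B17 (adjusted p = 0.0966). Without B13 the difference was 2.62. In 3N females and 1N males the tissue differences were 0.14 (adjusted p = 0.86) and 0.49 (adjusted p = 0.515). Without B3, the difference in 1N males was 1.49 (adjusted p = 0.043).

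LOC100121630 was a gene of the head in every kind of wasp, and its values were tight among the libraries of each female head group. In 3N female heads it had 19.8, 18.9, 16.3, 19.7 and 13.7 CPM in B31, B32, B33, B34A and B35A. In 2N female heads it had 39.6, 57.9, 47.1, 43.8 and 39.8 CPM in B21, B22, B23, B24 and B25. Every 3N value was below every 2N value, with a log2 difference of -1.36. Within shallow libraries alone, 2 against 5, the difference was -1.45.

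In 2N male heads LOC100121630 had 7.75, 11.7, 8.86, 6.14 and 5 CPM in B11, B12A, B13, B14 and B15. In 1N male heads it had 29.6, 22.8, 13.7, 45.8 and 26.8 CPM in B1A, B2A, B3, B4A and B5D. The groups did not overlap, and the log2 difference was -1.82. The highest 2N library, B12A, was the shallow one of its group and the lowest 1N library, B3, the deep one of its group. With a term for deep libraries the difference was -1.51, and the part of depth was not tested further.

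The RefSeq table places LOC100121630 within the span of another gene, LOC100121612, and the counts do not tell strands apart as far as the labels say. LOC100121612 had 341 ± 24.7 CPM in 3N female heads and 306 ± 17.5 CPM in 2N female heads (SD, n = 5 each), a log2 difference of 0.17 (adjusted p = 0.694). In male heads it had 229 ± 93.4 CPM at 2N and 228 ± 62.5 CPM at 1N (SD, n = 5 each), a difference of 0.01 (adjusted p = 0.995). Its own level in abdomens was lower than in heads in all 4 kinds of wasp, with log2 differences of -3.60 to -5.82, the same direction as in LOC100121630. In female abdomens its difference by ploidy, 1.21 (adjusted p = 0.00426), also had the direction of LOC100121630. So did its differences of 2N female abdomens from those of 2N and 1N males, -1.90 (adjusted p = 1.84e-05) and -1.74 (adjusted p = 4.58e-05). By ploidy in male abdomens the directions were opposite, at 0.16 for LOC100121612 and -0.67 for LOC100121630, neither past the threshold. The part of LOC100121612 reads in the values of LOC100121630 was not tested.

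At equal ploidy LOC100121630 was higher in female than in male heads. The 2N female heads, at 45.7 ± 7.52 CPM, stood against 7.9 ± 2.61 CPM in 2N male heads (SD, n = 5 each), with no overlap. The log2 difference was 2.52 ± 0.26 (SE, adjusted p = 1.11e-06), where 27.9% of all genes were called and 1299 of 10846 were higher. Both groups also entered the ploidy comparisons behind the choice of the genes, so this p-value is not independent of that choice. Deep libraries were 0 of the 2N female and 4 of the 2N male heads, and with a term for them the difference was 2.15. Against 1N male heads, at 27.7 ± 11.8 CPM (SD, n = 5), the difference was 0.70 ± 0.25 (SE, adjusted p = 0.0466), with overlap and with 8.49% of genes higher. That call was lost without any 1 of 8 libraries (B2A, B3, B5D, B21, B22, B23, B24 or B25), with adjusted p values of 0.0676 to 0.13. The lowest difference without 1 library was 0.53, without B3, and within shallow libraries the difference was 0.55 (adjusted p = 0.105).

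In abdomens LOC100121630 was low, and in 2N females it was near the limit of detection. The gene summed to 139 counts in 3N female, 303 in 2N male and 237 in 1N male abdomens. It had 1.44, 2.09, 0.367, 0.0817 and 1.11 CPM in 3N female abdomens B36A, B37A, B38, B39A and B40A. In 2N female abdomens B26A and B30 had 0.0395 and 0.0909 CPM, and B27 and B28A had 0 counts, which allows up to 0.0698 and 0.117 CPM. With 3 counts in all 4 of the 2N libraries, the ratio of 3N to 2N female abdomens was 29.4, with a 95% counting interval of 9.86 to 144, and B39A overlapped the 2N range.

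Male abdomens held more of it than 2N female abdomens. The values were 0.325, 1.72, 1.52, 0.26 and 0.597 CPM in 2N male abdomens B16, B17, B18, B19 and B20. They were 2, 1.5, 0.101, 1.5 and 1.8 CPM in 1N male abdomens B6A, B7, B8, B9 and B10. The male groups overlapped, with a log2 difference of -0.67 (adjusted p = 1). The fall in 2N female abdomens relative to male abdomens passed the test at equal ploidy (adjusted p = 0.00166) and at the usual ploidy (adjusted p = 0.000656). Neither pair overlapped in CPM, although in TPM the 1N male abdomen B8, at 0.67 TPM, lay below the 2N female abdomen B30, at 0.87 TPM. Since 3 counts stand on the female side, the size is given as counting ratios from the summed counts of each group. They put 2N male abdomens at 35.5 times (12 to 173) and 1N male abdomens at 50.6 times (17.1 to 247) the 2N female abdomens. Their intervals cover counting error only and leave out the spread between libraries.

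LOC100121630 fell in abdomens relative to heads in all 4 kinds of wasp without overlap. The log2 differences were -4.16 in 3N females (adjusted p = 1.81e-07), -3.13 in 2N males (adjusted p = 1.21e-05) and -4.34 in 1N males (adjusted p = 1.22e-07). In 2N females the adjusted p was 7.39e-12, and the counting ratio put heads at 1770 times abdomens (605 to 8580). Genes lower in abdomens made up 34.6% in 3N females, 32.8% in 2N males and 33.4% in 1N males.

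ppo1 was sparse in heads. It had 2.01, 1.21, 1.14, 0.571 and 0.895 CPM in 3N female heads B31, B32, B33, B34A and B35A, and 0.414, 1.45, 0.923, 3.24 and 1.52 CPM in 2N female heads B21, B22, B23, B24 and B25. It had 0.634, 0.767, 0.684, 0.312 and 0.529 CPM in 2N male heads B11, B12A, B13, B14 and B15, and 0.665, 0.226, 1.3, 0.645 and 0.0956 CPM in 1N male heads B1A, B2A, B3, B4A and B5D. All neighbouring groups overlapped. The ploidy differences were -0.34 in female heads and -0.07 in male heads on the log2 scale, and they were 0.17 without B24 and 0.51 without B3.

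Neither sex difference of ppo1 in heads passed the threshold. Relative to 2N male heads the log2 difference of 2N female heads was 1.35 ± 0.56 (SE, adjusted p = 0.0769), and it was 1.56 without B21 (adjusted p = 0.0454) and 0.85 without B24. Relative to 1N male heads it was 1.29 (adjusted p = 0.112), and without B3 it was 1.86 (adjusted p = 0.0381).

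In abdomens ppo1 had its lowest values in 2N females. It had 4.2, 4.28, 3.28, 0.245 and 1.53 CPM in 3N female abdomens B36A, B37A, B38, B39A and B40A. In 2N female abdomens it had 0.158, 0.0465, 0.0779 and 0.0455 CPM in B26A, B27, B28A and B30, which are 9 counts in all. B39A, the lowest 3N library, had 6 counts and B26A, the highest 2N library, had 4, too few to tell them apart. The log2 difference between the groups was 5.24.

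In 2N male abdomens ppo1 had 35.1, 7.49, 5.04, 7.02 and 2.64 CPM in B16, B17, B18, B19 and B20. In 1N male abdomens it had 3.86, 8.25, 7.52, 11.1 and 11.6 CPM in B6A, B7, B8, B9 and B10. B16 stood far above the others and the groups overlapped. The log2 difference was 0.39 (adjusted p = 1), and -0.65 without B16.

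Relative to males, ppo1 was lower in 2N female abdomens, by a log2 difference of -7.19 ± 1.04 against 2N males (SE, adjusted p = 4.15e-06) and of -6.80 against 1N males (adjusted p = 6.89e-06). No female library reached the lowest male one. Without B16 the first difference was -6.14 (adjusted p = 3.27e-06). On the log2(TPM + 1) scale, which compresses low levels, they were -2.44 (adjusted p = 0.000105) and -2.42 (adjusted p = 0.000116). The tissue difference was positive in males and negative in 2N females. ppo1 was higher in abdomens than in heads by log2 differences of 4.30 in 2N males (adjusted p = 2.44e-06) and 3.81 in 1N males (adjusted p = 1.42e-05), with 31.8% of all genes higher in 1N males and 32.5% in 2N males. In 2N females it fell by 4.19 on the log2 scale (adjusted p = 4.39e-05). On the log2(TPM + 1) scale these were 1.89 in 2N males, 1.93 in 1N males and -1.15 in 2N females. In 3N females the difference was 1.20 (adjusted p = 0.086), and without B39A it was 1.39 (adjusted p = 0.0387).

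The tissue difference itself differed between the sexes at 2N for all 3 genes, in the direction that 40.3% of all genes took. The difference of differences, females minus males, was -8.32 for Def1-2 (adjusted p = 9.16e-08), -7.45 for LOC100121630 (adjusted p = 2.07e-07) and -8.49 for ppo1 (adjusted p = 2.77e-08). On the log2(TPM + 1) scale it was -7.31 for Def1-2, -4.94 for LOC100121630 and -3.04 for ppo1. Over all genes tested the median was -0.39 in the count fit. All 3 genes were also lower in 2N female than in 2N male abdomens, where the median over all genes was -0.46. Neither depth class held at least 2 libraries of both groups. With a term for deep libraries these abdominal sex differences were -8.67 for Def1-2, -6.12 for LOC100121630 and -6.86 for ppo1.

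**Figure D2:**
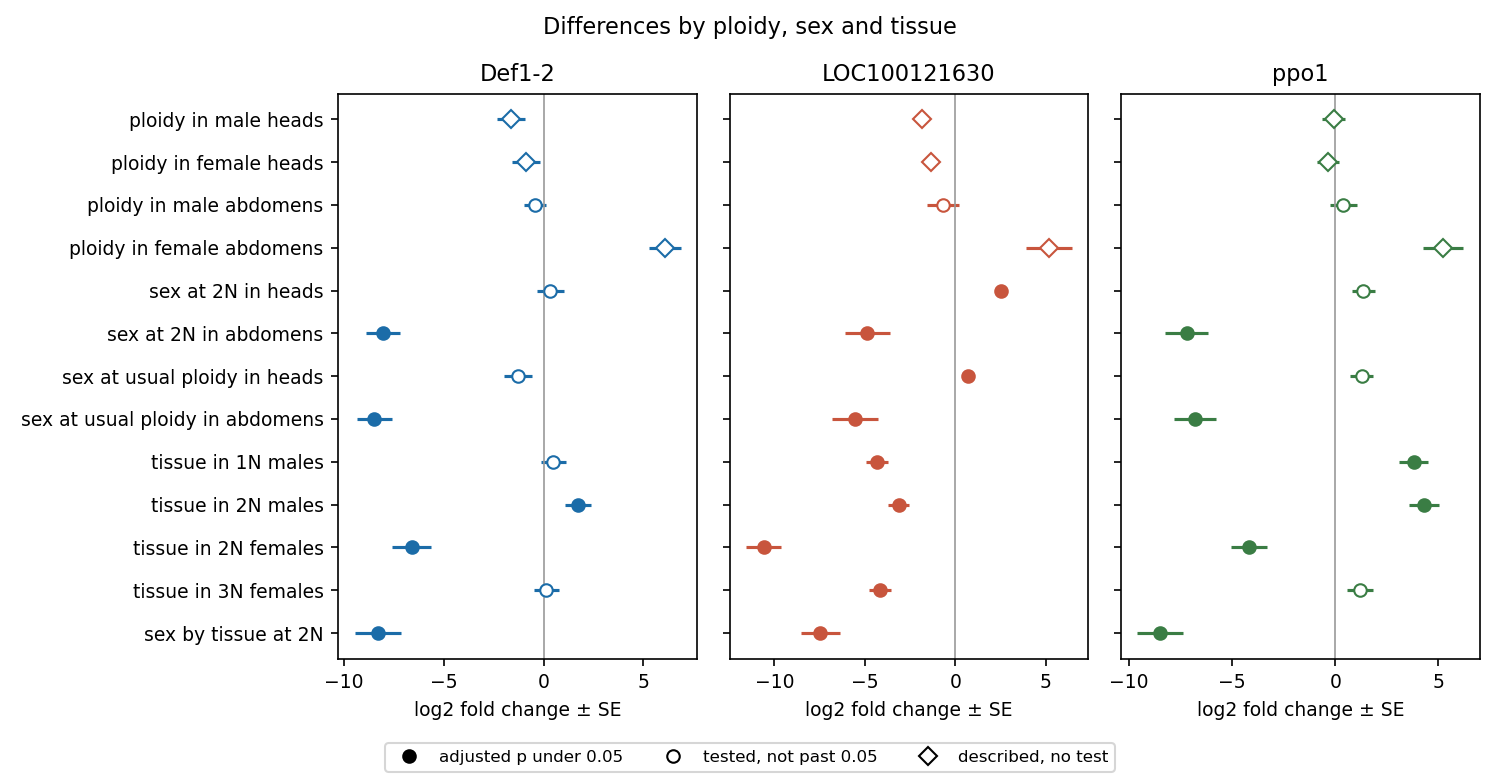
Log2 fold change with its standard error, derived from the F statistic, for each gene in 13 comparisons. Values are positive where the higher ploidy, the female or the abdomen is higher. Filled circles passed an adjusted p of 0.05, open circles did not, and diamonds are described without a test. The sex differences in abdomens lie between -4.86 and -8.48, and the tissue difference of ppo1 is positive in males and negative in 2N females.

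Several marker levels also differed between the female abdomen groups. The fat body list, 4 genes of hexamerin storage proteins and the adipokinetic hormone receptor Akhr, summed to 4.13 to 55.8 CPM in 3N and 2.57 to 3.35 CPM in 2N female abdomens. In male abdomens it summed to 310 to 413 CPM at 2N and 336 to 392 CPM at 1N. Akhr made most of these male sums, with 285 to 382 CPM at 2N and 233 to 368 CPM at 1N. In female abdomens Akhr had 1.31 to 47.1 CPM in 3N and 0.233 to 0.818 CPM in 2N. Of the hexamerins, Hex109 overlapped between the female groups, at 0.568 to 3.74 CPM in 3N and 0.631 to 2.14 CPM in 2N. Hex70b overlapped too, and Hex83 did not, at 1.31 to 5.56 CPM in 3N and 0.909 to 1.21 CPM in 2N. The muscle list of 3 genes summed to 631 to 1590 CPM in 3N and 495 to 592 CPM in 2N female abdomens, while the ovary and germline sum was lower in 3N. Within the muscle list Tm1 had 501 to 1390 CPM in 3N and 360 to 447 CPM in 2N, but Tm2 went the other way, with 81.9 to 122 CPM in 3N and 129 to 153 CPM in 2N. B39A, which was lowest among 3N libraries for all 3 genes, also had the lowest muscle and fat body sums and the highest ovary sum of its group. No fat body, muscle or ovary marker was at 0 throughout a female abdomen group. Of the 16 neuron and eye markers, the opsin Lop1 was at 0 in all libraries of both female abdomen groups, and nAChRa4 and nAChRa10 in those of 2N. The part of tissue makeup in the female abdomen and sex differences was not tested.

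**Figure D3:**
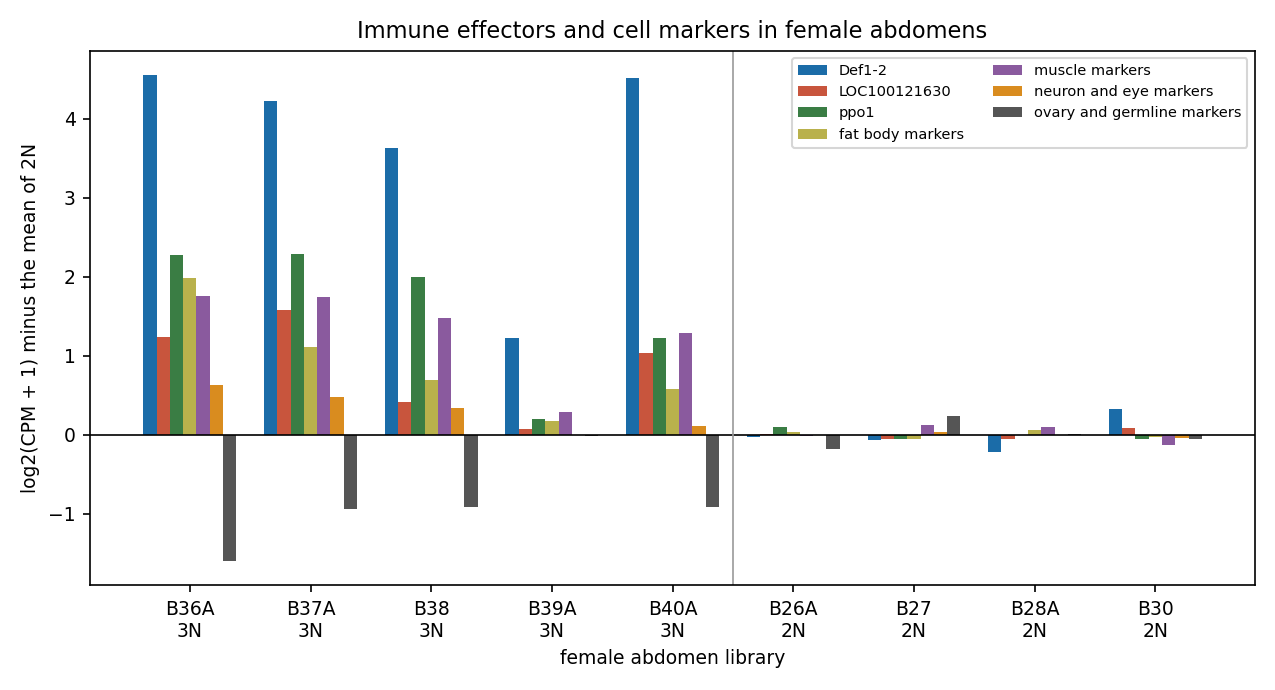
Each female abdomen library relative to the mean of the 2N libraries, in log2(CPM + 1) units, for the 3 genes and for the median gene of each marker list. Bars of the 3N libraries B36A, B37A, B38 and B40A rise for the 3 genes and for the median muscle and fat body gene and drop for ovary markers, while B39A lies nearer to the 2N libraries, at 1.22 for Def1-2, where the 2N libraries run from -0.22 to 0.32.

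Def1-1, the other defensin of the Def1 pair, lies close to Def1-2 in the RefSeq table, where both also fall within the spans of other annotated genes, and reads that match both would have been divided between them; ppo1 and ppo3 carry the same uncertainty. Its median was 12.4 TPM in 3N female heads and 17.3 TPM in 2N female heads, below those of Def1-2, at 108 and 134 TPM. The library highest for Def1-2 was also highest for Def1-1 in 4 of 4 head groups (B32, B23, B13 and B3) and in 5 of 8 groups in all. LOC100121630 shared the top library with Def1-2 in 0 of 4 head groups and in 3 of 8 groups in all, each of them abdomens (B30, B17 and B6A). Expressed as deviations from the group mean over 39 libraries, which share depth and scaling, Pearson's r was 0.842 between Def1-2 and Def1-1, rank 2 among 10767 genes. It was 0.140 with LOC100121630 and 0.185 with ppo1. This view of deviations was added after the values were seen.

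**Figure D4:**
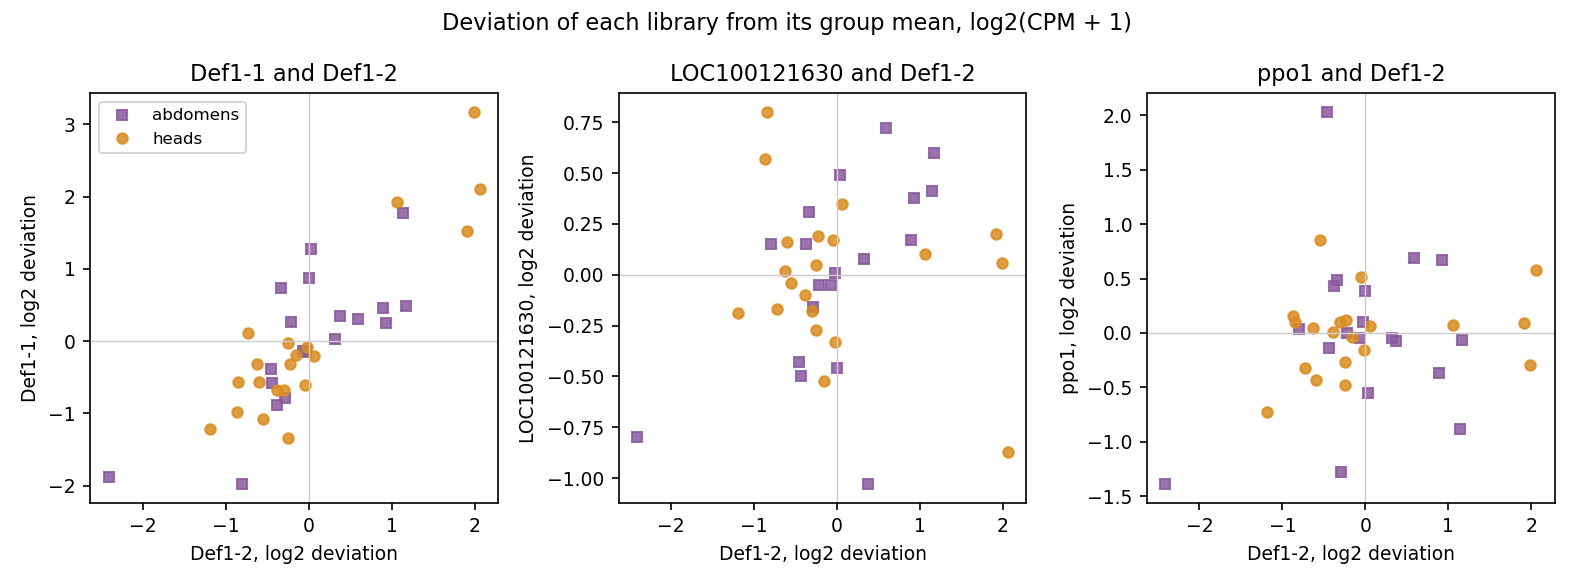
Deviation of each library from its group mean, in log2(CPM + 1), for Def1-2 on the horizontal axis and Def1-1, LOC100121630 or ppo1 on the vertical axis, with abdomens as squares and heads as circles. Def1-1 follows Def1-2 (r = 0.842), and the other 2 genes spread without such a line (r = 0.140 and 0.185).

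The other immune genes with a symbol were Gnbp1-2, a recognition protein of the beta-glucan binding family, Imd, the adaptor of the Imd pathway, Cad, a caudal transcription factor known in Drosophila to restrain antimicrobial peptide genes in the gut, serpin5, a protease inhibitor, ppo3 and Def1-1. By ploidy, edgeR's test passed 0 of the 5 tested in male heads, 0 of 5 in female heads and 0 of 6 in male abdomens. Of all genes tested, 0.0738%, 0.313% and 0.0421% were called there, in the same order. At an unadjusted p under 0.05 there were 1 (Imd), 2 (Imd and serpin5) and 1 (serpin5), DESeq2 passed 1, 2 and 0, and limma voom passed 0 in each. The share of all genes under these alternatives is not given here, so those counts have no background to be set against. Imd had 12.4 ± 1 CPM in 3N and 17.3 ± 1.54 CPM in 2N female heads, and 15.9 ± 1.96 CPM in 2N and 21.1 ± 2.2 CPM in 1N male heads (SD, n = 5 each). Neither pair of groups overlapped for Imd, with log2 differences of -0.46 (adjusted p = 0.0596) and -0.41 (adjusted p = 0.204). In female abdomens, where 38.7% of all genes were called, 1 of 6 passed, Def1-1, with 3.88 ± 2.36 CPM in 3N (SD, n = 5) and 0.164 ± 0.164 CPM in 2N (SD, n = 4), a log2 difference of 4.77 (adjusted p = 0.0118). The groups overlapped, and the count was 0 under limma voom and in shallow libraries alone. The median over the list was 0.01, against 0.10 over all genes.

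By sex in abdomens, Cad was higher in 2N females than in 2N males by a log2 difference of 2.17 (adjusted p = 4.72e-05). Def1-1, Imd and serpin5 were lower there, with differences of -3.72 (adjusted p = 0.0159), -1.18 (adjusted p = 4.29e-06) and -1.74 (adjusted p = 1.2e-09). In this comparison 83.5% of all genes were called, 37.2% higher and 46.3% lower in 2N females, so such calls are not particular to immune genes. In heads at 2N, where 27.9% of all genes were called, 1 of 5 passed: ppo3, with 3.4 ± 0.447 CPM in females and 1.7 ± 0.48 CPM in males (SD, n = 5 each), a difference of 0.96 (adjusted p = 0.0199).

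By tissue, Cad, Gnbp1-2 and serpin5 were higher in abdomens than in heads in all 4 kinds of wasp, and ppo3 was lower in all 4. Of all genes, 38.3% were higher in abdomens of 3N females, 37.7% of 2N females, 32.5% of 2N males and 31.8% of 1N males. Lower there were 34.6%, 42.6%, 32.8% and 33.4%, in the same order. ppo3, listed beside ppo1 in the RefSeq table, thus went the other way from ppo1 in males. In 2N males the log2 differences were -3.97 for ppo3 (adjusted p = 0.000465) and 4.30 for ppo1. The yellow family, secreted proteins of which some take part in melanin formation, had 7 of its 8 tested members past the threshold in female abdomens, all higher at 3N, as were 28.7% of all genes. In shallow libraries alone 3 passed. In 2N female abdomens relative to 2N male abdomens 7 of 8 fell, as did 46.3% of all genes. The family's median log2 differences in the 2 comparisons were 3.58 and -6.93, against 0.10 and -0.46 over all genes.

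The genes most like each member were found by Pearson's r of log2(CPM + 1) over 39 libraries among the 10767 genes averaging 1 CPM or more. For Def1-2 they were LOC100122415 (0.903), LOC100122694 (0.899) and LOC100123801 (0.894), and by symbol CPR16, CPR34 and CYP9P3. For LOC100121630 they were LOC100123727 and LOC100121973 (0.951 each) and CYP6CK13P (0.948), followed by the symbols nAChRa8, a nicotinic receptor subunit (0.935), and Lop1, an opsin (0.926). For ppo1 they were LOC100122040 and LOC100115180 (0.905 each) and GstS2 (0.896), followed by faa (0.893) and CYP6CK7 (0.887). Differences between groups, depth and scaling are shared by these libraries and enter every one of these values.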

How the data were processed

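Per the labels' protocols, RNA was extracted without DNase treatment and libraries were made with poly-T beads and an NEBNext Ultra kit. STAR 2.7.11a and RSEM 1.3.1 appear in the submitters' processing notes, with no step assigned to either. The genome build and strand setting: not given in the sources used here. The authors deposited estimated counts for 14621 genes, not normalized, of which 16.8% were not whole, and they were rounded. The authors also deposited TPM for 14613 genes, used for levels and alternatives. All 14621 identifiers matched symbols of the RefSeq table of Nvit_psr_1.1, used for names, synonyms and neighbouring genes only.

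Genes were tested with edgeR 4.0.16 (quasi-likelihood F test, TMM, filterByExpr, two-sided) in R 4.3.3, with Benjamini-Hochberg adjustment over all genes of a comparison and not over comparisons. Heads (10846 genes), abdomens (11884) and all 39 libraries (12402, for tissue) were fitted apart. CPM values use the TMM factors of all 39 libraries. The SE of a log2 difference is its absolute value divided by the square root of the F statistic. It is thus derived from the test and not estimated apart. There were 13 comparisons, of which 10 were tested for the 3 genes. The fits were tested on simulated data. Alternatives used limma 3.58.1, DESeq2 1.42.0, other scalings, filters and pseudocounts, terms for deep or letter-named libraries, depth classes alone and leaving out each library; scaling by library totals alone was chosen after seeing the data. In each of 76 pairs of libraries of 1 group, the counts differed by more than sampling noise. Intervals and floors cover counting error only.

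The genes, lists and tests were chosen with earlier results of these data known. The genes named are the 3 members, other Def and ppo genes, up to 2 genes that rose and 2 that fell per immune list by smallest adjusted p, and the 3 most correlated genes with and without a descriptive symbol; LOC100121612 was added for its overlap, and Imd in heads after its values were seen. No Toll or blood cell list gene matched, and symbols that matched a list by letters alone were dropped by name.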

Additional observations from a re-analysis of the deposited data

Results flagged for a closer look

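Def1-2 had 1 library far above the others in 5 of the 8 groups: 36.3 CPM in 3N female head B32, 99.5 CPM in 2N female head B23, 76.3 CPM in 2N male head B13, 244 CPM in 1N male head B3 and 176 CPM in 2N male abdomen B17. LOC100121630 was far below its group in 1N male abdomen B8, at 0.101 CPM, and ppo1 was far above its group in 2N male abdomen B16, at 35.1 CPM. These are 7 of 24 sets of libraries examined by Dixon's test on CPM, which sets the gap of the extreme library against the group's range. Chance marks about 1 in 20 such sets only where values are normally distributed. That was not checked for these CPM values, so the count does not measure an excess over chance.

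The tissue difference, abdomens minus heads, differed between 2N females and 2N males in the test of that difference itself, by -8.32 for Def1-2, -7.45 for LOC100121630 and -8.49 for ppo1 on the log2 scale. Of all genes tested, 40.3% were called in that direction. The 2N female abdomens, 2N female heads and 2N male heads also entered the comparisons behind the choice of the genes. The test is therefore not independent of that choice.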

How the results depend on the processing

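Of the 30 tested results, 20 kept their direction and side of the threshold under every alternative run, among them the sex and sex by tissue results of all 3 genes that compare 2N female abdomens with males. No paired analysis was possible because the labels give each library its own name and tie no head to an abdomen. The cause of the changes below was not tested. Values are log2 differences.

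Under log2(TPM + 1), with and without a filter, the ploidy differences in female abdomens were 4.87 for Def1-2, 2.58 for LOC100121630 and 1.32 for ppo1. Under log2(TPM + 0.1) they were 4.58 for LOC100121630 and 3.26 for ppo1, and limma voom gave 4.28 for LOC100121630. These differences stayed positive throughout. For ppo1 in male abdomens log2(TPM + 0.1) gave -0.03. In female heads a term for deep libraries gave -1.03 for LOC100121630 and -0.89 for ppo1, and shallow libraries alone gave -1.04 for ppo1.

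The sex difference of ppo1 in 2N heads passed under DESeq2 (1.36, adjusted p = 0.0451), with a term for deep libraries (1.95, adjusted p = 0.0351) and in a fit of those groups alone (1.35, adjusted p = 0.0457). At the usual ploidy in heads, Def1-2 passed with a term for letter-named libraries (-2.10, adjusted p = 0.0413). LOC100121630 no longer passed there with no count filter (0.68), in those groups alone (0.71) or in shallow libraries (0.55). The tissue difference of Def1-2 in 2N males no longer passed under library totals alone (1.27), log2(TPM + 0.1) (1.33) or log2(TPM + 1) without a filter (1.32). In 3N females it was -0.01 under DESeq2 and its size factors, -0.17 under limma voom, -0.63 under log2(TPM + 1) with and without a filter and -0.65 under log2(TPM + 0.1). ppo1 in 3N females passed with terms for deep (1.53) or letter-named (1.49) libraries and without B6A and B39A (1.38).

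Leaving out 1 library at a time, ploidy differences ran from -0.32 to 0.51 for ppo1 in male heads, -1.23 to 0.11 for Def1-2 and -0.59 to 0.17 for ppo1 in female heads, -0.65 to 0.64 for ppo1 in male abdomens and 4.72 to 6.34 for LOC100121630 in female abdomens. Sex differences in 2N heads ran from -0.63 to 1.23 for Def1-2 and 0.85 to 1.56 for ppo1. At the usual ploidy in heads they ran from -2.24 to -0.28 for Def1-2, 0.53 to 0.94 for LOC100121630 and 0.80 to 1.86 for ppo1. Tissue differences of Def1-2 ran from 0.09 to 1.49 in 1N males, 1.27 to 2.62 in 2N males and -0.05 to 0.53 in 3N females, and those of ppo1 from 0.98 to 1.49 in 3N females.

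Scaling moved the median of all genes in 2N female against 2N male abdomens: it was -0.46 with TMM, -0.62 with DESeq2 size factors, -0.03 with library totals and 0.33 under log2(TPM + 1). All 3 genes were lower there under each, ppo1 at -4.88 under log2(TPM + 0.1). With 3 and 9 counts in 2N female abdomens, depth limits the size of the differences of LOC100121630 and ppo1 from that group.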
